A study of Mus musculus with 2 samples.

Results

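The cell cycle genes examined here were 46 of the 28000 rows of a single-cell expression table from regenerating mouse mammary gland. They were chosen by name and divided into 17 genes of S phase (Pcna, Mcm2, Mcm3, Mcm4, Mcm5, Mcm6, Mcm7, Gins2, Tyms, Tk1, Rrm1, Rrm2, Ung, Slbp, Dut, Ccne1 and Ccne2) and 29 genes of G2 and mitosis (G2/M). All 46 were present in the table. The question was which epithelial and immune cells of the regenerating gland expressed them, in which phase, and how these levels compared when the basal cells lacked Fgfr2, a receptor for fibroblast growth factors.

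Both libraries came from grafts of mixed donor cells in cleared mammary fat pads. Basal cells of Fgfr2 +/+ (Ctrl) or Fgfr2 fl/fl (Fgfr2 KO) donors had been exposed to adenovirus-Cre-GFP, which deletes the floxed allele, and both carried the R26R mT/mG reporter, red before Cre recombination and green after it. In both groups they were combined with red luminal cells, Fgfr2 +/+ and with the same reporter, and the hosts were 3-week-old female nude mice, which lack T cells but keep other immune cells. Grafts were recovered after 5 days, sorted and profiled by droplet-based sequencing with unique molecular identifiers (UMIs), with 1 library per group. Whether a library pooled several hosts was not stated. With 1 library per group there is no replicate check and no test between groups: each 95% interval below covers counting error only, not the spread between grafts or between cells.

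Dividing cells copy their DNA in S phase and separate it in mitosis. Genes for replication and nucleotide supply are switched on at the passage from G1 into S by E2F factors, whereas genes for the spindle, the kinetochore and mitotic kinases are switched on later, in G2, through the MuvB complex and its partners, and their transcripts are removed after division. In the mammary gland, epithelial cells divide rapidly when ducts extend through the fat pad and little in the resting adult gland.

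The promoters of both classes of gene were inspected first, because they carry the sequence features tied to phase. RefSeq sequences (GRCm38.p6) were found for 14 of the 17 S-phase and 25 of the 29 G2/M members. In the 250 bases upstream of a start, on either strand, a CCAAT box (CCAAT) occurred in 64.3% of S-phase and 88% of G2/M members, against 37.5% of all 27025 genes. A gene with several listed starts was counted if any of them matched. At least 2 such boxes occurred in 42.9% and 56%, against 11.5% of all genes. A CHR-type word (TTTGAA), the type of element bound by MuvB, occurred in 7.14% of S-phase and 40% of G2/M members, against 18.3% of all genes. It occurred together with at least 2 CCAAT boxes in 0 of 14 S-phase and 7 of 25 G2/M members (28%), against 1.8% of all genes. An E2F-type word (TTTCCCGC, TTTGGCGC, TTTCGCGC or TTTGCCGC) occurred in 21.4% of S-phase and 4% of G2/M members, against 2.16% of all genes. A match describes the letters and does not show that a factor binds there. The sequences below are the 150 bases directly upstream of the start of 2 replicative helicase genes, Mcm5 (chr8:75109359-75109508, plus strand) and Mcm6 (chr1:128359706-128359855, minus strand), and of 3 mitotic genes, Ube2c (chr2:164769779-164769928, plus strand), Cdc20 (chr4:118437344-118437493, minus strand) and Ccnb2 (chr9:70421555-70421704, minus strand). They are written 5′ to 3′ on the strand of the gene, with these words in capitals on either strand, and are shown because the E2F words occur in the first pair and the CHR word in Ube2c and Cdc20, while all 5 hold at least 2 CCAAT boxes.
Mcm5: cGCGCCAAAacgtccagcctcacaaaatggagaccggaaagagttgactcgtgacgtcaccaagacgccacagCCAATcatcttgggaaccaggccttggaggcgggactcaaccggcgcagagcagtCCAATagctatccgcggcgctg
Mcm6: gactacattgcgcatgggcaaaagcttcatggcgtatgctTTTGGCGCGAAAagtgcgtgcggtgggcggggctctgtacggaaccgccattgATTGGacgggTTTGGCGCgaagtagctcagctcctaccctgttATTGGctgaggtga
Ube2c: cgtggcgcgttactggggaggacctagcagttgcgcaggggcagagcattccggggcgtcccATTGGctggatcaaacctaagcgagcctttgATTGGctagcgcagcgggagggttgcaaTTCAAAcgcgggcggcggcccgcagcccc
Cdc20: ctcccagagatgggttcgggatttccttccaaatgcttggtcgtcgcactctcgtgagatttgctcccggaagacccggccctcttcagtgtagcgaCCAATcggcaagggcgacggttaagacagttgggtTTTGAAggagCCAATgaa
Ccnb2: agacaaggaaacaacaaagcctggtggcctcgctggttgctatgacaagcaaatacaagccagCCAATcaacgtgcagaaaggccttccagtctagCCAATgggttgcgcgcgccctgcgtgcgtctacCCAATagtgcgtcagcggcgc
In Mcm6, 2 of the 3 E2F words overlap. Mcm5 and Mcm6 have 2 CCAAT boxes each and no CHR word. Ube2c and Cdc20 combine 2 CCAAT boxes with 1 CHR word in this stretch. Ccnb2 has 3 CCAAT boxes and no CHR word here, though 1 occurred in a 250-base window of the gene. Ccnb1 had 2 CCAAT boxes but no such CHR word in its window.

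Cells were classed by their keratins and by Ptprc, the gene of the leukocyte antigen CD45. A cell with at least 1 Ptprc UMI was CD45-positive. Of the others, a cell with at least 10 UMIs of Krt14, Krt5, Krt8 and Krt18 was basal-keratin or luminal-keratin by the majority, and the rest were low-keratin. In all, 5458515 UMIs came from 268 Ctrl cells and 1253032 UMIs from 86 Fgfr2 KO cells, with no cell barcode in common. There were 63 Ctrl and 17 Fgfr2 KO basal-keratin cells, 98 and 20 luminal-keratin cells, 73 and 23 CD45-positive cells, and 34 and 26 low-keratin cells. The classes carried their markers: 10 basal markers summed to 9121 and 11875 counts per 1000000 UMIs (CPM) in basal-keratin cells of Ctrl and Fgfr2 KO and to 1628 and 1255 CPM in luminal-keratin cells, while 14 luminal markers summed to 9070 and 7318 CPM in luminal-keratin cells and to 1948 and 1396 CPM in basal-keratin cells. Markers of other cell types were lower in the epithelial classes of Fgfr2 KO: 13 immune markers summed to 430 and 124 CPM in basal-keratin and to 443 and 159 CPM in luminal-keratin cells of Ctrl and Fgfr2 KO, and 6 fibroblast markers to 120 and 28.3 CPM and to 560 and 151 CPM. Their part in the results below was not tested. The CD45-positive class was less clean, since in Ctrl 8 of its 73 cells had more keratin than immune marker UMIs, each with 1 Ptprc UMI. What these cells are was not tested, and the shares of positive cells in the class are also given without them.

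The targeted gene did not separate the libraries. Fgfr2 had 41 UMIs in 25 of 63 basal-keratin cells of Ctrl (32.9 CPM, 23.6 to 44.7) and 7 UMIs in 6 of 17 of Fgfr2 KO (24.7 CPM, 9.94 to 51.0), with overlapping intervals, and 112 and 27 UMIs in luminal-keratin cells (42.6 and 50.4 CPM). Where these reads lie relative to the deleted part of the gene is not given in the sources used here, so this does not check the genotype, and Fgfr2 KO below is the label of the library. GFP, which the recombined reporter and the adenovirus both carry, had at least 1 UMI in 19 of 63 and 9 of 17 basal-keratin cells and in 39 of 98 and 14 of 20 luminal-keratin cells of Ctrl and Fgfr2 KO. It also had at least 1 UMI in 6 of 73 and 2 of 23 CD45-positive cells and in 1 of 34 and 7 of 26 low-keratin cells, so a single UMI can be background. With at least 10 UMIs there were 2 and 2 basal-keratin and 3 and 6 luminal-keratin cells. The donor origin of single cells was not assigned from these counts.

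To compare cells of unequal depth, each was thinned to 5000 UMIs, and a cell was counted as positive for a phase when at least 3 of 15 S-phase or of 26 G2/M members were detected. Dut, Slbp, Hmgb2, Stmn1 and Cks2 were left out of this count as genes also found in resting cells. How many cells lay near the limit differed between classes and libraries. In Ctrl basal-keratin cells, 48 of 62 had at most 2 G2/M genes, 2 had 3 or 4, and 12 had 5 or more, up to 18. In Fgfr2 KO basal-keratin cells, 5 of 17 lay just outside the G2/M limit and 6 just outside the S-phase limit, with 2 genes, and 1 cell was above both. For S phase in the Ctrl basal-keratin class, 4 cells lay just inside the limit with 3 genes, 7 just outside it with 2, and 6 had 5 or more. In Ctrl luminal-keratin cells neither count left a gap: 9 cells had 3 S-phase genes and 11 had 2, and 4 cells had 3 G2/M genes and 7 had 2.

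**Figure D1:**
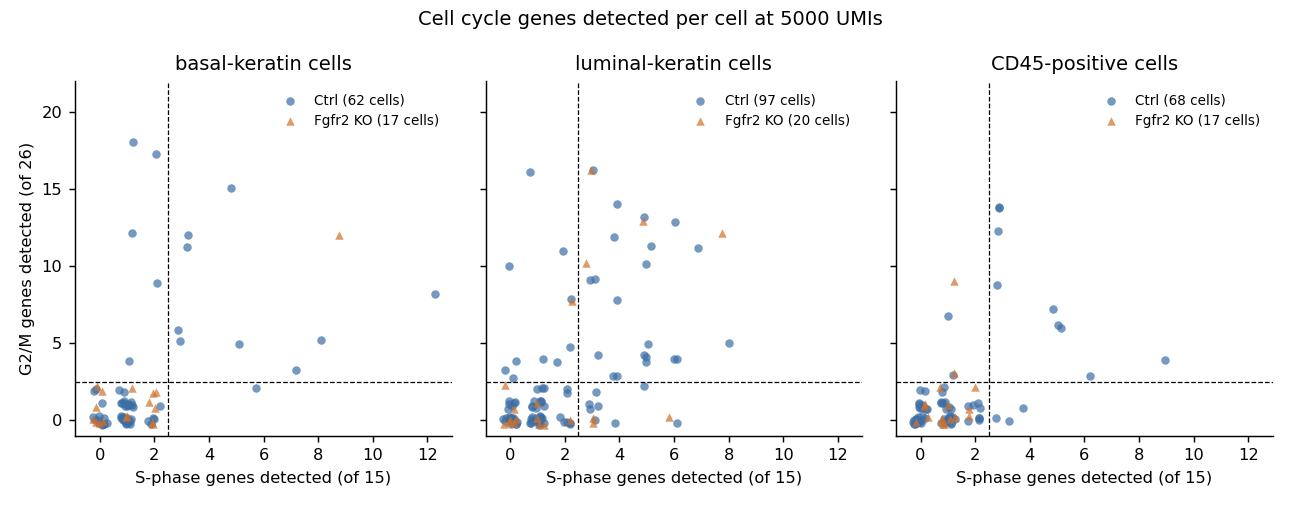
S-phase genes (x, of 15) and G2/M genes (y, of 26) detected per cell after thinning to 5000 UMIs, with a small random offset so that points do not hide each other; circles are Ctrl and triangles Fgfr2 KO cells, and dashed lines mark the limit of 3 genes. In Ctrl basal-keratin cells the positive cells reach 18 G2/M genes, whereas 1 of 17 Fgfr2 KO basal-keratin cells lies above the limit, with 12.

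Luminal-keratin cells were positive most often at the limit of 3 genes. In Ctrl, 31 of 97 (32.0%, 22.9 to 42.2%) were G2/M-positive, against 14 of 62 basal-keratin cells (22.6%, 12.9 to 35.0%) and 11 of 68 CD45-positive cells (16.2%, 8.36 to 27.1%). For S phase, 29 of 97 luminal-keratin cells (29.9%, 21.0 to 40.0%), 10 of 62 basal-keratin cells (16.1%, 8.02 to 27.7%) and 12 of 68 CD45-positive cells (17.6%, 9.47 to 28.8%) were positive. These intervals overlapped between classes. The G2/M order of the epithelial classes of Ctrl turned with the count. With 5 or more G2/M genes there were 12 of 62 basal-keratin and 18 of 97 luminal-keratin cells, and the order also turned when all members were counted. Low-keratin cells of Ctrl had the lowest shares, 0 of 27 for S phase, which allows up to 11.1% at a floor of 3 counts (exact upper limit 12.8%), and 1 of 27 for G2/M (3.704%), at a median of 6530 UMIs before thinning against 16117 and 22669 in basal-keratin and luminal-keratin cells.

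In Fgfr2 KO, 5 of 20 luminal-keratin cells were G2/M-positive (25%, 8.66 to 49.1%) and 7 of 20 were S-positive (35%, 15.4 to 59.2%), shares on either side of those of Ctrl and within their intervals. Of the 17 Fgfr2 KO basal-keratin cells, 1 was positive (5.88%, 0.149 to 28.7%), and it was positive for both phases. Among the CD45-positive cells, 2 of 17 were G2/M-positive (11.8%, 1.46 to 36.4%) and 0 of 17 were S-positive, which allows up to 17.6% at the same floor (exact upper limit 19.5%). The basal shares of Fgfr2 KO had intervals that overlapped those of Ctrl, and their direction turned with the limit: with at least 2 genes, 6 of 17 Fgfr2 KO and 19 of 62 Ctrl cells were G2/M-positive (35.3% and 30.6%), and 7 of 17 and 17 of 62 were S-positive (41.2% and 27.4%). No direction is therefore given for the share of positive basal-keratin cells, and with 1 library per group it was not tested. Without thinning, 26 of 63 Ctrl and 4 of 17 Fgfr2 KO basal-keratin cells were G2/M-positive (41.3% and 23.5%), and 60 of 98 and 8 of 20 luminal-keratin cells (61.2% and 40%).

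**Figure D2:**
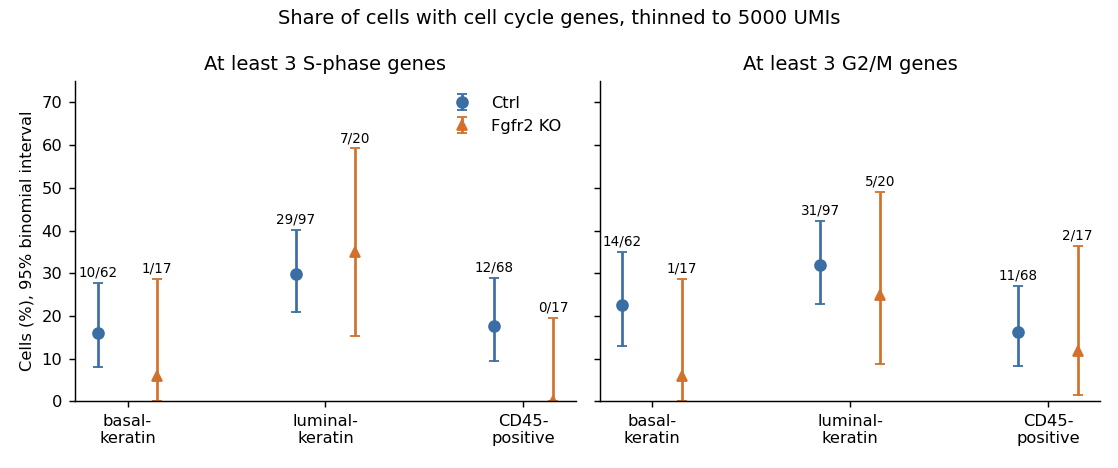
Share of cells (y, percent) with at least 3 S-phase genes (left) or G2/M genes (right) by class, after thinning to 5000 UMIs; points are 1 library each, bars are exact binomial 95% intervals and labels give positive cells over all cells. Luminal-keratin cells have the highest shares in both libraries at this limit, 32.0% and 25% for G2/M, and the intervals of Ctrl and Fgfr2 KO overlap in every class. At other gene limits the G2/M order of the epithelial classes can turn.

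By phase, most positive cells of Ctrl had genes of both sets. Of 39 positive Ctrl luminal-keratin cells, 8 had S-phase genes only, 21 had both and 10 had G2/M genes only. Of 15 positive Ctrl basal-keratin cells, 1 had S-phase genes only, 9 had both and 5 had G2/M genes only. In CD45-positive cells of Ctrl these were 3, 9 and 2, or 3, 5 and 2 without the cells with more keratin than immune marker UMIs. Of the 8 positive Fgfr2 KO luminal-keratin cells, 3 had S-phase genes only, 4 had both and 1 had G2/M genes only, and the 2 positive CD45-positive cells of Fgfr2 KO had G2/M genes only. Cells with transcripts of both sets were thus the largest group of positive cells in the 3 classes of Ctrl, and the numbers were too small to rank the phases between libraries.

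Genes that had not been used for the calls were read as well. They belong to the same phases and were read in the same cells, so they are not an independent check of the calls. A second list of 25 S-phase genes (such as Cdt1, Fen1 and Dnmt1) and a second list of 29 G2/M genes (such as Cdca3, Nuf2 and Pttg1) were summed in the thinned cells. In Ctrl luminal-keratin cells, the other G2/M genes stood at 134 CPM (95.6 to 184) in cells with neither call, at 450 CPM (267 to 711) with S-phase genes only, at 1429 CPM (1209 to 1676) with both and at 960 CPM (708 to 1273) with G2/M genes only. The other S-phase genes stood at 228 CPM (176 to 290), 700 CPM (465 to 1012), 1114 CPM (922 to 1335) and 500 CPM (324 to 738) in the same order. Both lists were therefore higher in each kind of positive cell than in the rest, and the S-phase list was lower in cells with G2/M genes only than in cells with both. In Ctrl basal-keratin cells the other G2/M genes stood at 115 CPM (75.7 to 167) without a call and at 1757 CPM (1460 to 2097) in G2/M-positive cells, and in CD45-positive cells at 104 CPM (68.9 to 150) and 1691 CPM (1365 to 2071). CD45-positive cells of Ctrl with genes of 1 phase only did not follow this throughout. In the 3 cells with S-phase genes only, the other S-phase and the other G2/M genes each stood at 133 CPM (16.1 to 482), against 174 CPM (128 to 231) and 104 CPM (68.9 to 150) in cells of that class without a call. In the 2 cells with G2/M genes only, the other S-phase genes had 0 UMIs (0 to 369 CPM).

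**Figure D3:**
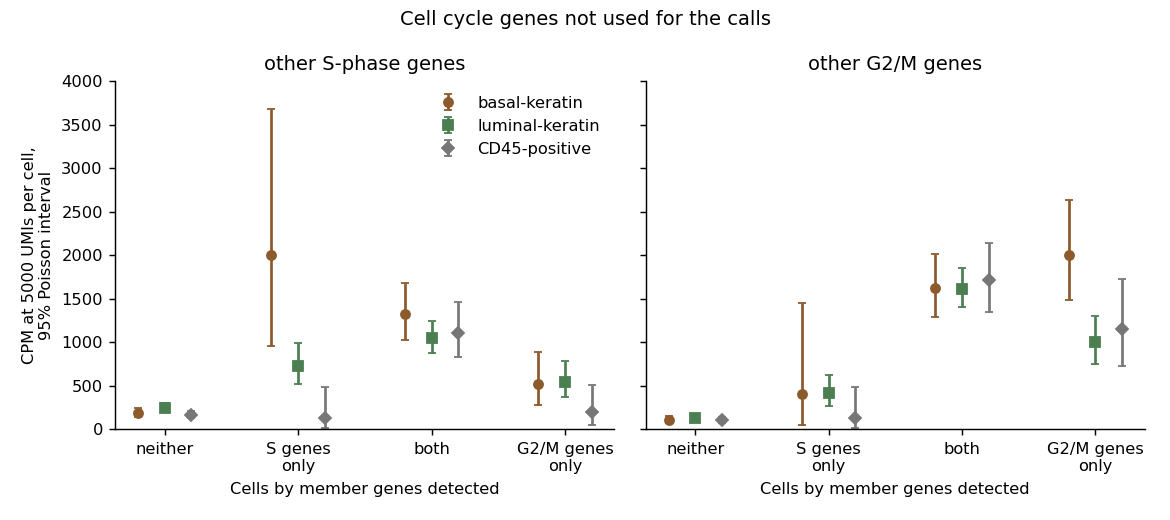
Summed level (y, CPM at 5000 UMIs per cell, with exact Poisson 95% intervals) of 25 other S-phase genes (left) and 29 other G2/M genes (right) by the phase genes detected in the cell (x), over both libraries; symbols are cell classes. In luminal-keratin cells the other G2/M genes stand at 131 CPM with neither call and at 1616 CPM with both, and the point for basal-keratin cells with S-phase genes only is 1 cell.

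The 16 Fgfr2 KO basal-keratin cells without a call were not fully devoid of replication transcripts. The other S-phase genes had 26 UMIs in them (325 CPM, 212 to 476), against 34 UMIs in 47 such Ctrl cells (145 CPM, 100 to 202). The other G2/M genes had 8 UMIs (100 CPM, 43.2 to 197), against 27 UMIs in Ctrl (115 CPM, 75.7 to 167). The S-phase list was thus higher in uncalled Fgfr2 KO cells and the G2/M list was not distinguishable.

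Positive cells also carried more RNA. Before thinning, positive Ctrl cells had a median of 31141 UMIs in the basal-keratin class, against 13886 in cells without a call, and 36870 against 18599 in the luminal-keratin class. In Fgfr2 KO luminal-keratin cells the medians were 24846 and 24056. The single positive Fgfr2 KO basal-keratin cell had 29389 UMIs, and the others had a median of 16823. Scrublet called doublets in 2 of 268 Ctrl and 6 of 86 Fgfr2 KO cells, which were kept. Whether doublets contribute to these depths was not tested.

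Summed over cells, the G2/M members differed more between the libraries in the basal-keratin class than in the luminal-keratin or CD45-positive class. The low-keratin class had a ratio of like size in the other direction (1.18, with 83 of its 122 Fgfr2 KO UMIs in 1 cell), but it held unlike mixtures of cells: fibroblast markers summed to 19044 and 1872 CPM, erythroid markers to 15618 and 0 CPM and immune markers to 10205 and 9588 CPM in Ctrl and Fgfr2 KO. In basal-keratin cells of Ctrl the G2/M members summed to 2681 UMIs, or 2152 CPM (2072 to 2235). In those of Fgfr2 KO they summed to 272 UMIs, or 961 CPM (850 to 1082), which gave a log2 ratio of -1.16 (-1.35 to -0.98). The S-phase members had 1006 and 174 UMIs in basal-keratin cells (808 CPM, 758 to 859, and 615 CPM, 527 to 713), a log2 ratio of -0.39 (-0.63 to -0.16). Over the genes used for the calls alone, without the 5 also found in resting cells, the ratios were -1.65 (-1.95 to -1.36) for G2/M and -0.54 (-0.84 to -0.26) for S phase. The ratio of all S-phase members was -0.11 without cells of mixed keratins and -0.97 without the cell with the most such UMIs in each library, so its size depended on which cells were counted. The difference was larger for G2/M than for S phase in each of these settings, and the same held for the lists not used in the calls: the other G2/M genes had a log2 ratio of -1.08 (-1.41 to -0.77) and the other S-phase genes one of -0.02 (-0.31 to 0.25).

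In luminal-keratin cells the G2/M members were not lower in Fgfr2 KO over all cells. The G2/M members stood at 1999 CPM (1945 to 2054) in Ctrl and 2313 CPM (2186 to 2445) in Fgfr2 KO, for a log2 ratio of 0.21 (0.12 to 0.30), which became -0.09 (-0.20 to 0.02) without the cell with the most G2/M UMIs in each library. The S-phase members stood at 762 CPM (729 to 796) and 835 CPM (760 to 917), a log2 ratio of 0.13 (-0.02 to 0.28). The mean of per-cell levels gave 0.57 and leaving out mixed-keratin cells 0.34, so the direction of the luminal G2/M ratio depended on how single cells were weighted, whereas the basal ratio without the top cells was farther from 0, at -1.62 (-1.87 to -1.38). In CD45-positive cells the G2/M members stood at 1707 and 1750 CPM (log2 ratio 0.04, -0.11 to 0.18) and the S-phase members at 641 and 630 CPM (-0.02, -0.27 to 0.22), and without the top cells these ratios were -0.39 and -0.80. With at least 2 Ptprc UMIs asked of a CD45-positive cell, the G2/M ratio was 0.70, so no direction is given for this class.

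These sums came from few cells. In the basal-keratin class, 4 of 63 Ctrl cells held 51.0% of the G2/M UMIs, and 1 of 17 Fgfr2 KO cells held 44.1%. In the luminal-keratin class, 4 of 98 Ctrl cells held 26.2% and 4 of 20 Fgfr2 KO cells held 80.6%. The median G2/M level per cell was 428 and 350 CPM in basal-keratin cells, 592 and 523 CPM in luminal-keratin cells and 349 and 443 CPM in CD45-positive cells of Ctrl and Fgfr2 KO. These levels include Hmgb2, Stmn1 and Cks2. Over the 26 G2/M genes of the calls the medians were 126 and 117, 162 and 82.3, and 129 and 182 CPM in the same order. In the basal-keratin class the libraries were thus closer in their median cell than in their sum. In the CD45-positive class of Ctrl, the 8 cells with more keratin than immune marker UMIs held 63.1% of the G2/M UMIs, and 4 of them were G2/M-positive, against 7 of the 60 other cells that reached 5000 UMIs (11.7%, 4.82 to 22.6%). Of those 60, 8 were S-positive (13.3%, 5.94 to 24.6%). The summed levels and ratios of the class include the 8 cells. In Fgfr2 KO, 1 such cell with 83994 UMIs held 40.4%, and without it 1 of 16 cells was G2/M-positive (6.25%) and 0 were S-positive.

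**Figure D4:**
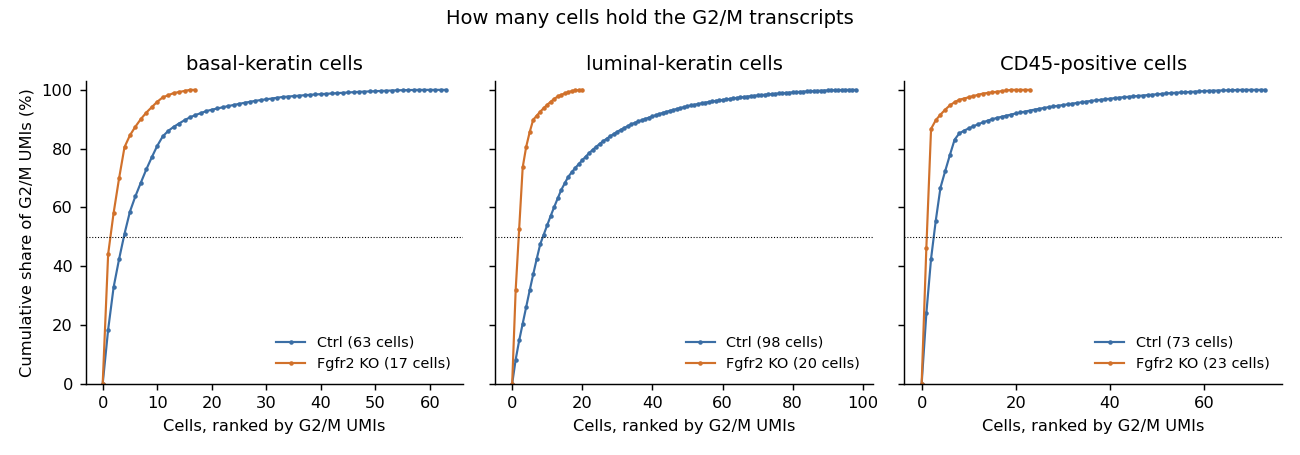
Cumulative share of G2/M UMIs (y, percent) over cells ranked by their G2/M UMIs (x), by class and library; the dotted line marks 50%. The classes of Fgfr2 KO hold fewer cells and their curves rise sooner, with 80.6% in 4 of 20 luminal-keratin cells, and those of Ctrl rise more slowly, with 26.2% in 4 of 98.

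Gene by gene, 40 members had at least 20 UMIs over both libraries in basal-keratin cells. Of these, 21 were at least 2-fold lower in Fgfr2 KO and 0 were higher, against 11.5% lower and 4.16% higher among all 6639 genes with at least 20 UMIs. No test was made, since each group was 1 library. The 21 comprised 19 of 26 G2/M members and 2 of 14 S-phase members, Mcm4 and Mcm7. The median log2 ratio was -1.50 for G2/M and -0.55 for S-phase members, against -0.10 for all genes. Because a gene low in both libraries could not pass the minimum, the counts describe the members with enough UMIs and not all 46. The minimum also did not treat both directions alike. The class total was 1245635 UMIs for Ctrl but only 283023 for Fgfr2 KO. A gene expressed mainly in Ctrl therefore passed at a lower CPM than a gene expressed mainly in Fgfr2 KO. This favours lower over higher calls, and the shares among all genes were subject to the same minimum.

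Among mitotic regulators in basal-keratin cells, Cdk1, the kinase that drives entry into mitosis, had 107 UMIs in Ctrl (85.9 CPM, in 20 of 63 cells) and 5 in Fgfr2 KO (17.7 CPM, in 2 of 17 cells), a log2 ratio of -2.28 (-3.93 to -1.01). Its partner cyclin B1, Ccnb1, had 85 and 4 UMIs (68.2 and 14.1 CPM), a log2 ratio of -2.27 (-4.18 to -0.86). Both intervals lay below 0. Cenpa, the histone variant that marks centromeres, had the lowest ratio of all members, with 135 UMIs in 21 Ctrl cells (108 CPM) and 2 UMIs in 2 Fgfr2 KO cells (7.07 CPM), a log2 ratio of -3.94 (-7.00 to -2.06). Ckap2, a spindle protein, had 36 and 1 UMIs (-3.03, -8.37 to -0.46). Aurkb, the kinase of the chromosomal passenger complex, had 32 and 1 (-2.86, -8.21 to -0.28). Aurka, the kinase of the spindle poles, was detected with 25 UMIs in Ctrl and none in Fgfr2 KO, which makes it at least 1.89-fold lower at a floor of 3 counts. Birc5 and Cdc20, which act in chromosome segregation and in the exit from mitosis, had 122 and 110 UMIs in Ctrl and 7 and 5 in Fgfr2 KO. Top2a, which untangles DNA, had 97 and 10 UMIs (77.9 and 35.3 CPM), a log2 ratio of -1.14 (-2.25 to -0.20). Of the 26 G2/M members 7 were not 2-fold lower, among them Mki67, the usual marker of dividing cells, with 37 and 7 UMIs (29.7 and 24.7 CPM) and a log2 ratio of -0.26 (-1.67 to 0.92), and 5 of its 7 Fgfr2 KO UMIs came from 1 cell. The intervals of Ccnb2 (68 and 10 UMIs, -0.63, -1.75 to 0.34), Ccna2 (39 and 5, -0.83, -2.53 to 0.52), Kif11 (18 and 3, -0.45, -2.85 to 1.33) and Stmn1 (355 and 64, -0.33, -0.74 to 0.05) also included 0. Hmgb2, a chromatin protein, had 635 and 80 UMIs (-0.85, -1.20 to -0.51), and Aurka was the last of the 7, at its bound.

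The S-phase members of basal-keratin cells stayed nearer to Ctrl. Pcna, the sliding clamp of replication, had 148 UMIs in Ctrl (119 CPM) and 28 in Fgfr2 KO (98.9 CPM), a log2 ratio of -0.26 (-0.90 to 0.33), and 14 of the 28 came from 1 cell. Mcm5, a subunit of the replicative helicase, had 50 and 10 UMIs (-0.18, -1.33 to 0.81), of which 8 of 10 came from 1 cell. Rrm2, the regulated subunit of ribonucleotide reductase, had 69 and 9 UMIs (-0.80, -1.99 to 0.21), of which 8 of 9 came from 1 cell. The intervals of all 3 included 0. Gins2, of the GINS complex that is part of the active helicase, had 32 and 7 UMIs (-0.05, -1.48 to 1.15). Slbp, which binds the stem-loop of histone mRNA, was the only one of these 40 members with a ratio above 0, with 73 UMIs in 31 of 63 Ctrl cells (58.6 CPM) and 28 UMIs in 11 of 17 Fgfr2 KO cells (98.9 CPM), a log2 ratio of 0.76 (0.07 to 1.40). In Fgfr2 KO 10 of its 28 UMIs came from 1 cell. The E-type cyclins were hardly detected: Ccne1 had 9 and 0 UMIs and Ccne2 1 and 1, so no ratio is given.

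**Figure D5:**
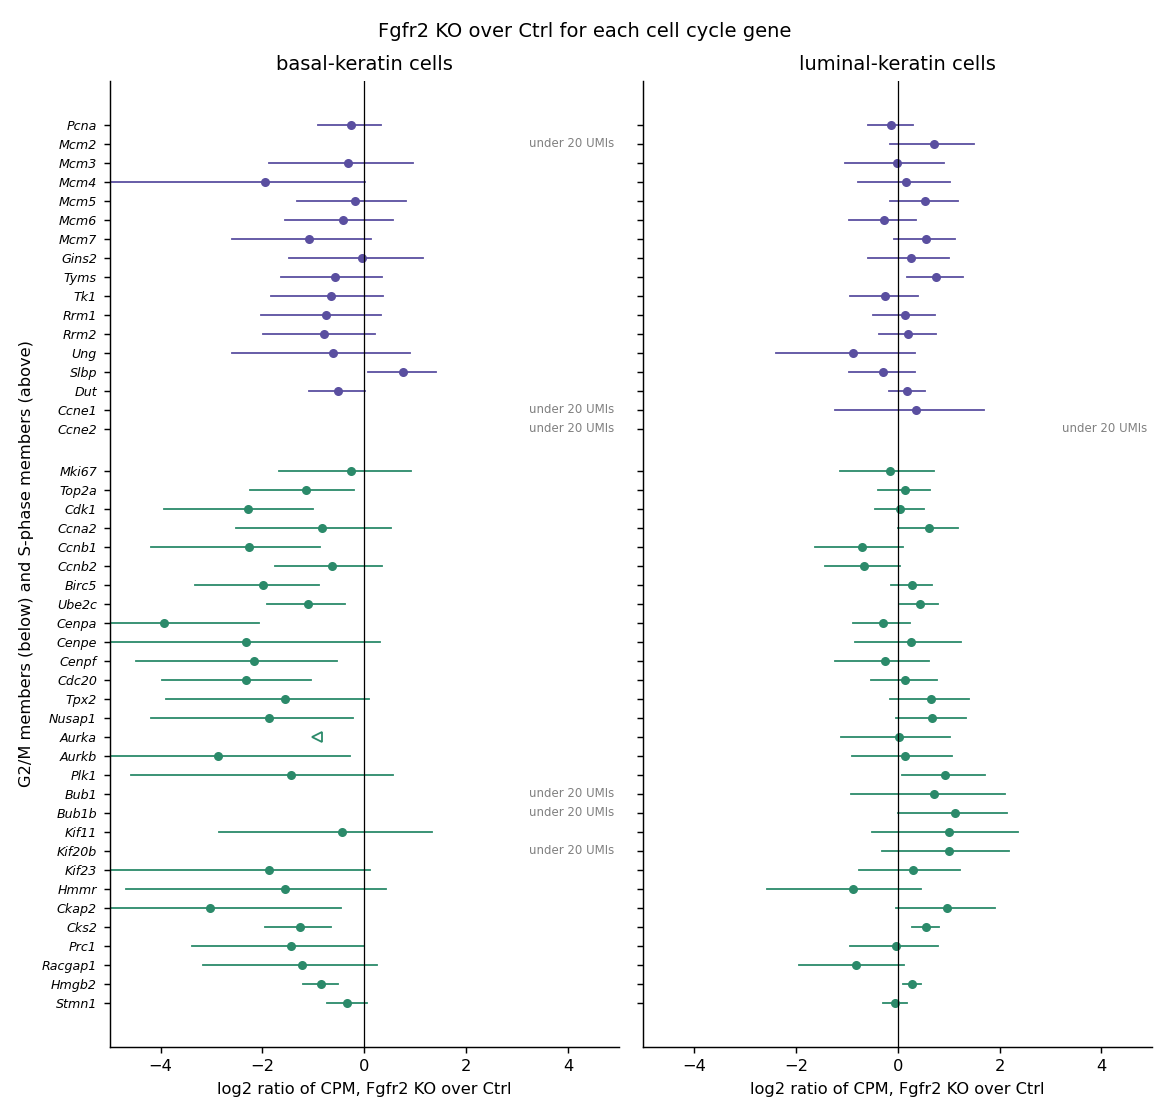
Log2 ratio of CPM, Fgfr2 KO over Ctrl, for each member in basal-keratin (left) and luminal-keratin (right) cells; dots are values, bars exact 95% counting intervals drawn within the axis, the open triangle is a bound for a gene with 0 UMIs in Fgfr2 KO, and members with fewer than 20 UMIs over both libraries are marked as such. In basal-keratin cells all 26 G2/M members with enough UMIs lie below 0, and in luminal-keratin cells 20 of 29 lie above 0.

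In luminal-keratin cells, 45 members had at least 20 UMIs, 0 were at least 2-fold lower and 3 were higher, against 8.97% lower and 3.95% higher among all 9067 genes. The median log2 ratio was 0.18 for S-phase and 0.26 for G2/M members, against -0.03 for all genes. The 3 higher genes had few UMIs: Bub1b, of the spindle checkpoint, had 27 in Ctrl and 12 in Fgfr2 KO (1.12, 0.01 to 2.15), Kif11, the motor that separates spindle poles, had 17 and 7 (1.01, -0.50 to 2.36), and Kif20b, a kinesin of late mitosis, had 22 and 9 (1.004, -0.30 to 2.18). With a minimum of 50 UMIs none of the members was 2-fold higher, and without the top cell of each library 2 of 45 were lower and 1 was higher. The lowest ratios were those of Ung, a uracil-DNA glycosylase (54 and 6 UMIs, -0.88, -2.38 to 0.34), of Hmmr, which acts at the spindle (45 and 5 UMIs, -0.88, -2.57 to 0.45), and of Racgap1, of the central spindle (87 and 10 UMIs, -0.83, -1.94 to 0.12), with intervals that included 0.

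The most familiar genes were close to Ctrl in luminal-keratin cells. Cdk1 had 218 UMIs in Ctrl (82.9 CPM) and 46 in Fgfr2 KO (85.8 CPM), a log2 ratio of 0.05 (-0.44 to 0.51). Top2a had 182 and 41 UMIs (0.14, -0.38 to 0.64), and Mki67 71 and 13 (-0.16, -1.13 to 0.71). Pcna had 279 and 52 (-0.13, -0.59 to 0.30), Mcm5 88 and 26 (0.53, -0.16 to 1.18) and Rrm2 149 and 35 (0.20, -0.37 to 0.74). Ccnb1 was lower than the rest at 112 and 14 UMIs (42.6 and 26.1 CPM), with a log2 ratio of -0.71 (-1.62 to 0.10). The cyclins E were low here as well, Ccne1 with 23 and 6 UMIs (0.35, -1.23 to 1.69) and Ccne2 with 13 and 2.

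In CD45-positive cells, 38 members had at least 20 UMIs, 5 were at least 2-fold lower and 0 were higher in Fgfr2 KO, against 12.2% lower and 7.8% higher among all 6346 genes. Without the cell with the most member UMIs in each library, 10 of 33 were lower and 1 was higher, so the count rested on single cells. Rrm1, the large subunit of ribonucleotide reductase, had 49 UMIs in 18 Ctrl cells and 1 in Fgfr2 KO (-3.41, -8.75 to -0.87), while its partner Rrm2 had 66 and 13 (-0.14, -1.13 to 0.73). Ccnb1 had 62 and 4 UMIs (-1.75, -3.67 to -0.33), and Racgap1 had 43 and 3 (-1.64, -3.97 to 0.00). The highest ratios were those of Cenpa, with 99 UMIs in 27 cells and 34 in 11 cells (0.66, 0.05 to 1.23), and of Ung and the helicase subunit Mcm4, each with 15 and 5 UMIs (0.62, -1.20 to 2.15). Of the other familiar genes, Cdk1 had 107 and 20 UMIs (-0.22, -0.99 to 0.48), Top2a 74 and 17 (0.08, -0.78 to 0.85), Mki67 45 and 13 (0.41, -0.61 to 1.32), Pcna 184 and 36 (-0.15, -0.71 to 0.37) and Mcm5 46 and 15 (0.58, -0.36 to 1.45). Their intervals included 0. Ccne1 had 8 and 7 UMIs, of which 6 of the 7 came from 1 cell, and Ccne2 had 6 and 3.

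Within the Ctrl library, luminal-keratin and basal-keratin cells had similar sums over all members, with log2 ratios of luminal over basal of -0.08 (-0.19 to 0.03) for S-phase and -0.11 (-0.17 to -0.04) for G2/M members. The latter turned to 0.02 (-0.05 to 0.10) without the top cell of each class, so the direction rested on single cells. Over the genes used for the calls alone, the ratios were -0.04 (-0.17 to 0.09) for S phase and -0.29 (-0.38 to -0.19) for G2/M. These were not repeated without the top cells. Of 45 members, 3 were at least 2-fold lower in luminal-keratin cells and 0 were higher, against 5.5% lower and 9.05% higher among all 9537 genes. The 3 were Kif11 (18 UMIs in basal-keratin and 17 in luminal-keratin cells, log2 ratio -1.16, -2.21 to -0.12), Ckap2 (36 and 35, -1.12, -1.83 to -0.41) and Cdc20 (110 and 115, -1.01, -1.40 to -0.62). The highest G2/M members were cyclin A2, Ccna2 (39 and 109, 0.41, -0.13 to 0.97), the tubulin-binding Stmn1 (355 and 875, 0.22, 0.04 to 0.41) and Birc5 (122 and 274, 0.09, -0.22 to 0.41). Among S-phase members the highest were Mcm2 (14 and 54, 0.87, 0.00 to 1.83), Ccne1 (9 and 23, 0.28, -0.89 to 1.57) and Mcm6 (59 and 142, 0.19, -0.26 to 0.65). The lowest were Tyms, which makes thymidylate (72 and 114, -0.41, -0.85 to 0.03), Mcm5 (50 and 88, -0.26, -0.78 to 0.27) and Dut, which removes dUTP (208 and 369, -0.25, -0.50 to 0.00).

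Within the Fgfr2 KO library the classes stood apart. G2/M members had a log2 ratio of luminal over basal of 1.27 (1.08 to 1.46) and S-phase members one of 0.44 (0.19 to 0.70). Only 27 members had at least 20 UMIs over both classes, of which 15 were at least 2-fold higher in luminal-keratin cells and 1, Slbp, was lower (-1.09, -1.92 to -0.25), against 13.8% higher and 7.33% lower among all 4655 genes. Cenpa had 2 UMIs in basal-keratin and 33 in luminal-keratin cells (3.12, 1.16 to 6.23), Birc5 7 and 68 (2.36, 1.24 to 3.73), and Plk1, a mitotic kinase, 2 and 19 (2.33, 0.27 to 5.47). This comparison shares its basal-keratin cells with that of Fgfr2 KO over Ctrl and is not separate evidence.

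The regulators upstream of these genes were examined as a list of 37, among them the D-type cyclins and their kinases, E2F and pocket proteins, and the inhibitors of cyclin-dependent kinases. In basal-keratin cells 23 had at least 20 UMIs, of which 9 were at least 2-fold lower and 0 were higher in Fgfr2 KO, against 11.5% lower and 4.16% higher among all genes. Ccnd2, a D-type cyclin of the G1 phase, had 160 UMIs in 33 Ctrl cells (128 CPM) and 12 in 6 Fgfr2 KO cells (42.4 CPM), a log2 ratio of -1.60 (-2.58 to -0.75), and 67 of the 160 came from 1 cell. Its kinase Cdk6 had 78 UMIs in 28 cells (62.6 CPM) and 4 in 3 cells (14.1 CPM), a log2 ratio of -2.15 (-4.06 to -0.73). Cdkn2b, an inhibitor of the same kinases, had 51 and 2 UMIs (-2.53, -5.62 to -0.61), and E2f4, a repressive E2F factor, had 42 and 3 (-1.67, -4.00 to -0.02). The other D-type cyclins and the kinase Cdk4 differed among themselves. Ccnd1 had 261 and 26 UMIs (-1.19, -1.83 to -0.61), Ccnd3 50 and 11 UMIs (-0.05, -1.14 to 0.91) and Cdk4 366 and 91 (0.13, -0.22 to 0.46). The antiproliferative gene Btg2 was higher, with 323 and 134 UMIs (0.87, 0.57 to 1.16), 50 of the 134 in 1 cell. It was also higher in luminal-keratin cells (625 and 173 UMIs, 0.44, 0.19 to 0.69).

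In luminal-keratin cells 29 regulators had at least 20 UMIs, of which 7 were at least 2-fold lower and 1 was higher, against 8.97% lower and 3.95% higher among all genes. The higher one was Cdc25a, a phosphatase that activates cyclin-dependent kinases (16 and 8 UMIs, 1.29, -0.14 to 2.60). The lowest were Cdkn1c, an inhibitor of cyclin-dependent kinases (38 UMIs in Ctrl, 18 of them in 1 cell, and 1 in Fgfr2 KO, -2.95, -8.30 to -0.39), Ccnd2 and the pocket protein gene Rbl2 (each 20 and 1, -2.03, -7.40 to 0.62), and Ccng2, linked to cell cycle arrest (57 UMIs in 36 of 98 cells and 4 in 4 of 20 cells, -1.54, -3.46 to -0.10). In CD45-positive cells 19 had at least 20 UMIs, of which 5 were lower and 2 higher, against 12.2% lower and 7.8% higher among all genes. The 2 higher were E2f4 (35 and 16 UMIs, 1.07, 0.12 to 1.96, with 8 of the 16 in 1 cell), which was lower in basal-keratin cells, and Btg2 (130 and 57, 1.01, 0.54 to 1.47). The lowest were Ccnd2 (65 and 1, -3.82, -9.15 to -1.29, with 46 of the 65 in 1 cell), Cdkn2b (38 and 1, -3.05, -8.39 to -0.48, with 19 of the 38 in 1 cell), Ccng2 (21 and 1, -2.19, -7.56 to 0.44) and the D-type cyclin Ccnd1 (135 UMIs in 36 cells and 8 in 3 cells, -1.88, -3.12 to -0.86, with 6 of the 8 in 1 cell).

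Regulators also differed between cells with and without a call within Ctrl, at equal depth. In luminal-keratin cells, Cdkn1a, the inhibitor induced by p53, had 98 UMIs in 37 of 58 cells without a call (338 CPM, 274 to 412) and 21 UMIs in 16 of 39 positive cells (108 CPM, 66.7 to 165), a log2 ratio of -1.65 (-2.40 to -0.96). Cdkn2a, which encodes 2 tumour suppressors from overlapping frames, had 40 UMIs in 15 of 58 cells without a call (138 CPM, 98.5 to 188) and 0 UMIs in 39 positive cells, with an upper limit of 18.9 CPM. The antiproliferative genes Btg1 (1214 and 610 CPM, -0.99, -1.30 to -0.69) and Btg2 (314 and 149 CPM, -1.08, -1.73 to -0.46) were lower in positive cells as well. Cdk4, a kinase of the D-type cyclins, stood at 200 and 318 CPM (0.67, 0.13 to 1.21). These 5 genes were named because their intervals did not include 0, after their values were seen. The class was not divided into types of luminal cell.

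In basal-keratin cells of Ctrl the same regulators had fewer UMIs and wider intervals. Cdkn1a stood at 93.6 CPM (58.7 to 142) without a call and at 107 CPM (46.1 to 210) in positive cells, a log2 ratio of 0.19 (-1.19 to 1.41). Cdkn2b had 12 UMIs in the cells without a call and 0 in positive cells. Ccnd1 stood at 102 and 293 CPM, with 24 UMIs in 47 cells and 22 UMIs in 15 cells (1.52, 0.62 to 2.42), whereas in luminal-keratin cells it stood at 297 and 303 CPM (0.03, -0.47 to 0.52). Btg1 was lower in positive cells of this class too (566 and 373 CPM, -0.60, -1.24 to -0.00). Whether the classes differ in these ratios was not tested.

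The reporter gave a last reading. Among cells with at least 10 GFP UMIs, a limit taken from an earlier look at these data, 0 of 5 Ctrl cells were positive for either phase and 4 of 8 Fgfr2 KO cells were. These 8 comprised 2 basal-keratin and 6 luminal-keratin cells. The single positive basal-keratin cell of Fgfr2 KO was among them. Whether their GFP came from the reporter or the virus cannot be told apart.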

How the data were processed

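Single-cell libraries of Ctrl and Fgfr2 KO grafts were analysed from the deposited UMI counts per gene and cell, 1 library per group. Cell Ranger (version 2.1.1 in the submitters' processing notes, mm10) had been run by the authors to obtain the counts, and its aggr function joined the libraries. Whether that step equalised depth, and the threshold of the study's CD45 filter, are not given in the sources used here, so all 354 deposited cells were kept, and no column was left without a group. Counts were not otherwise normalised. The 46 members, the lists of other genes and the markers were chosen with earlier results of these data known.

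Levels were UMIs summed per class and library, in counts per 1000000 UMIs (CPM), and their 95% intervals were exact Poisson limits. Ratios had exact conditional binomial intervals and shares Clopper-Pearson intervals. Only the ratio intervals were tried on simulated data, with Poisson counts that lack the clustering of UMIs in few cells. All cover counting error only. With 1 library per group no test or model was fitted. A fold needed at least 20 UMIs over both groups, a count of 0 was set to a floor of 3 counts, and 2-fold was the limit for counting a gene as lower or higher. Where the groups differed in total UMIs, genes high in the deeper group reached this minimum of UMIs more easily. Phase calls used cells thinned to 5000 UMIs (seed 1), which left out 1 basal-keratin, 1 luminal-keratin, 5 CD45-positive and 7 low-keratin cells of Ctrl and 6 CD45-positive and 13 low-keratin cells of Fgfr2 KO. Doublets were called with Scrublet per library and kept.

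Named in each class were 9 familiar genes, the 3 highest and 3 lowest members, the 3 members of each phase farthest apart between luminal-keratin and basal-keratin cells of Ctrl, and up to 4 regulators past 2-fold; others, such as Birc5, Cdc20, Aurka, Plk1, Cdk4 and Btg2, were chosen after their values were seen. Alternatives changed the classes, thinning, gene limits, scaling, doublets and single cells. Python 3.11.15, numpy 2.4.6, pandas 2.3.3, scipy 1.17.1, scanpy 1.11.5 and matplotlib 3.10.9 were used.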

Additional observations from a re-analysis of the deposited data

Results flagged for a closer look

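The summed G2/M members differed from Ctrl in opposite directions in the 2 epithelial classes of Fgfr2 KO, with a log2 ratio of -1.16 in basal-keratin cells and 0.21 in luminal-keratin cells. The difference between the classes was not tested, since each group was 1 library, and the luminal ratio was -0.09 without the top cell of each library.

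In low-keratin cells, which were outside the main comparisons, the G2/M members had a log2 ratio of 1.18 (0.80 to 1.56), with 112 UMIs in Ctrl (332 CPM) and 122 in Fgfr2 KO (751 CPM). Of the 122, 83 (68.0%) came from 1 cell with 6469 UMIs, 15 G2/M genes at 5000 UMIs, 7 keratin UMIs and 2 immune marker UMIs. The class also differed in its other markers, with fibroblast markers at 19044 and 1872 CPM and erythroid markers at 15618 and 0 CPM in Ctrl and Fgfr2 KO, and their part in the ratio was not tested.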

How the results depend on the processing

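No paired analysis was possible because each group had 1 library, and for the same reason no replicate could be left out. For summed ratios, 63 alternative values stayed close to the main one, 24 moved past its counting interval and 3 reversed, which here means a change of sign of a value whose interval did not include 0, and for shares of positive cells 130 stayed and 26 moved. The cause of each change was not tested. Removing the top cell of each group, for the member counts an alternative chosen after seeing the data, gave log2 ratios of Fgfr2 KO over Ctrl for S phase of -0.97 (basal-keratin), -0.0357 (luminal-keratin) and -0.80 (CD45-positive) and for G2/M of -1.62, -0.0900 (luminal-keratin, reversed) and -0.39. It gave luminal over basal ratios of 0.92 (S phase, Fgfr2 KO), 0.0217 (G2/M, Ctrl, reversed) and 1.55 (G2/M, Fgfr2 KO), 2 lower and 1 higher members in luminal-keratin cells, and 10 lower and 1 higher in CD45-positive cells. Leaving out mixed-keratin cells gave -0.11 (S phase) and -1.35 (G2/M) in basal-keratin cells, 0.34 (G2/M) in luminal-keratin cells, and luminal over basal ratios of 0.0889 (S phase, Ctrl) and 1.56 (G2/M, Fgfr2 KO). The mean of per-cell levels gave -0.73 (S phase, CD45-positive), 0.57 (G2/M, luminal-keratin), and luminal over basal ratios of 0.0343 (S phase, Ctrl), 0.19 (G2/M, Ctrl, reversed) and 1.79 (G2/M, Fgfr2 KO). A minimum of 2 Ptprc UMIs gave -1.37 (G2/M, basal-keratin), 0.70 (G2/M, CD45-positive), and luminal over basal ratios in Ctrl of -0.27 (S phase) and -0.29 (G2/M). Immune cells taken by markers gave -0.58 (S phase, CD45-positive), -1.37 (G2/M, basal-keratin), and luminal over basal ratios in Ctrl of -0.28 and -0.34.

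S-positive shares without thinning were 46.03% and 29.4% in basal-keratin cells of Ctrl and Fgfr2 KO, 71.4% and 70% in luminal-keratin cells, and 34.2% in CD45-positive cells of Ctrl. G2/M-positive shares in Ctrl were then 41.3%, 61.2% and 34.2%. Thinning to 3000 UMIs gave S-positive shares of 14.3% and 10% in luminal-keratin cells of Ctrl and Fgfr2 KO, and G2/M-positive shares of 22.4% in luminal-keratin cells of Ctrl and 0% in basal-keratin cells of Fgfr2 KO. Thinning to 8000 UMIs gave 22.2% S-positive and 44.4% G2/M-positive CD45-positive cells of Fgfr2 KO. A limit of 2 genes gave S-positive shares of 41.2% in basal-keratin cells of Fgfr2 KO, 41.2% in luminal-keratin cells of Ctrl and 29.4% in CD45-positive cells of Ctrl, and 35.3% G2/M-positive basal-keratin cells of Fgfr2 KO, where Ctrl basal-keratin cells had 27.4% S-positive and 30.6% G2/M-positive, so the direction between libraries turned. A limit of 5 genes gave S-positive shares of 14.4% and 15% in luminal-keratin cells and 7.35% in CD45-positive cells of Ctrl, and 18.6% G2/M-positive luminal-keratin cells of Ctrl. Counting all members gave S-positive shares of 29.4% in basal-keratin cells of Fgfr2 KO and 41.2% in luminal-keratin cells of Ctrl, and G2/M-positive shares of 43.5% and 43.3% in basal-keratin and luminal-keratin cells of Ctrl. A minimum of 50 UMIs gave 12 lower members in basal-keratin cells, 0 higher in luminal-keratin cells and 3 lower in CD45-positive cells, and a minimum of 10 gave 2 higher in CD45-positive cells.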

Other observations

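Cells with mixed keratins, in which the smaller pair of keratins made up at least 20% of the 4 keratins, were G2/M-positive about as often as others of their class in Ctrl. The counts were 7 of 28 mixed (25%, 10.7 to 44.9%) and 7 of 34 unmixed basal-keratin cells (20.6%, 8.70 to 37.9%), and 10 of 27 mixed (37.0%, 19.4 to 57.6%) and 21 of 70 unmixed luminal-keratin cells (30%, 19.6 to 42.1%). In Fgfr2 KO 3 basal-keratin and 2 luminal-keratin cells were mixed, and 0 of them were positive.

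In Ctrl basal-keratin cells, E2f1 and Mybl2, regulators of S-phase and G2/M genes, had 4 UMIs each in the 15 positive cells and 0 in the 47 others after thinning.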
